A study of Xenopus laevis with 12 samples.

Results

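Some genes of the frog retina were more abundant in ribosome-bound RNA of ganglion cells than in total retina RNA. A small set of these genes stood at nearly the same level in the crushed and the uncrushed eye after optic nerve crush. They are called the kept genes here. A gene was taken when its log2 CPM (CPM, the count of a gene relative to its library's scaled total, with TMM scaling and prior count 2) in ganglion cell RNA of unoperated frogs was at least 2 above total retina and its level there at least 10 CPM. Its crushed eye also had to lie within 0.5 log2 units of the contralateral eye at each of days 3, 7 and 11. A difference of 2 is a 4-fold ratio and 0.5 a 1.41-fold ratio. Of 45099 gene models, 646 met the enrichment and level conditions, and 46 of these were kept. The genes were thus chosen by measured values of 8 libraries (total retina, naive, and both eyes of days 3, 7 and 11), which are described below and not tested.

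Retinal ganglion cells are the projection neurons of the eye, and their axons form the optic nerve. In frogs, unlike mammals, these axons regrow to the brain after a crush. Injured neurons are known to lower many genes of mature signalling while raising genes of stress and growth. Xenopus laevis is an allotetraploid, and many genes exist as .L and .S copies from its ancestral genome duplication.

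The study used TRAP, in which tagged ribosomes are pulled down with the RNA bound to them. All frogs, controls included, carried EGFP-RPL10a under an islet2b promoter, were F1 progeny of single female founders, and were post-metamorphic animals older than 6 months. What the pull-down holds therefore depends on which cells that promoter drives. Enrichment sets ribosome-bound RNA against total RNA, so cell type and ribosome binding cannot be told apart in it. Of the 12 libraries, 1 was made from RNA of the total retina and 1 from TRAP RNA of both eyes of unoperated frogs (naive), and 1 each came from TRAP RNA of the left and the right eye of sham-operated frogs at day 1. The crushed right eye and the untreated left eye of crush-operated frogs gave 1 TRAP library each at days 1, 3, 7 and 11. Per the labels' protocols, RNA from 3 biological replicates was combined into each sample, so every condition is 1 library. In the labels the right nerve was crushed, whereas a line of the series text names the left eye, and the labels were followed. Naive, sham and contralateral libraries are called the 7 uninjured TRAP libraries. Library totals ran from 16820571 to 63299998 counts. No library was left out. In RNA from whole retinas, fewer ganglion cells and less RNA per cell cannot be told apart.

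Being kept was less common among enriched genes than elsewhere. The 46 kept genes are 7.12% of the 646 enriched genes, against 22% of the 12225 genes at 10 CPM or more in naive TRAP that were not enriched. These shares describe single libraries and come from the contrasts that chose the genes. At day 3, 277 enriched genes lay within 0.5 of the contralateral eye, at day 7 104 and at day 11 103. Another 206 enriched genes (31.9%) lay at -2 or lower at both days 7 and 11 and are called the lost genes. A further 37 lay above 0.5 at all 3 days.

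**Figure D1:**
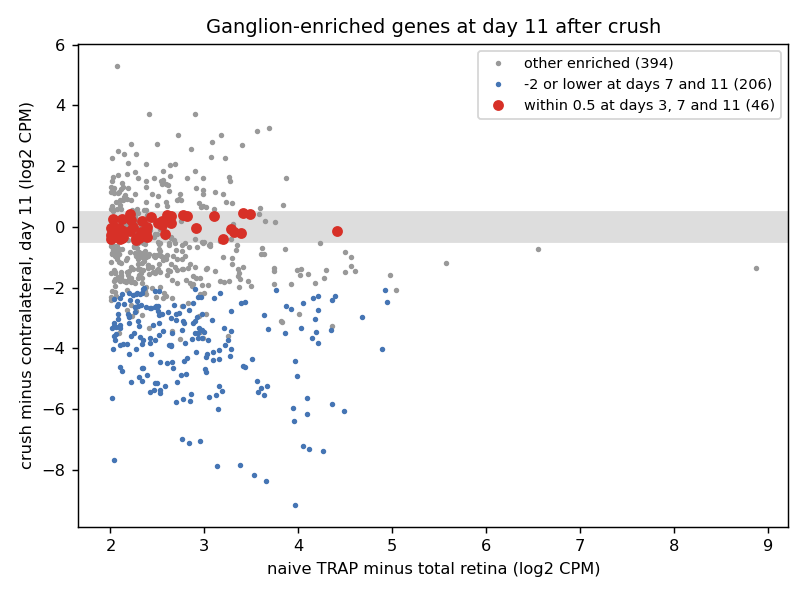
Each point is 1 of the 646 enriched genes, with naive TRAP minus total retina on the x axis and crush minus contralateral at day 11 on the y axis, both in log2 CPM. The 46 kept genes (red) lie in the grey band of 0.5 either way and the 206 lost genes (blue) at -2 or lower.

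The working description of the set, a ganglion cell identity that outlives axon injury, was checked against marker genes, of which thy1.L alone met the rule under TMM scaling. With library totals thy1.L lay at -0.72 and -0.76 at days 7 and 11 and did not meet it. Of 41 gene models of retinal ganglion cell markers, 28 were enriched. Among these 28, thy1.L was kept and 14 were lost. Of the 28, 16 lay below the window on every day of the rule and 0 lay above it on every day. A gene that was not kept need not be lost, because the window also leaves out genes that rose. Among the 28 enriched markers, for example, tubb3.L lay at 0.70 and 1.60 and tubb3.S at 1.42 and 2.55 at days 7 and 11. Of 83 models of ganglion cell transcription factors, 22 were enriched, 0 were kept and 14 were lost. Among all 646 enriched genes 7.12% were kept, 31.9% were lost and 39.8% lay below the window on every day. At that kept share, lists of 28 and 22 enriched models may hold few or no kept genes. The kept counts therefore cannot decide whether the set is an identity programme, and the set is named by its rule alone. These lists were drawn up with earlier results of the same data known.

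The kept genes on lists for other functions of a mature neuron were rtn4rl1.L, lgi1.L, kif5a.S and stmn1.S. Their counts stand beside 7.12% kept and 31.9% lost among all 646 enriched genes, at which a short list may hold no kept gene. None of the 16 enriched models of ion channels and pumps was kept, and 8 were lost. None of the 13 enriched models of synaptic vesicle release was kept (5 lost), and none of the 10 of neurotransmitter receptors (7 lost). None of the 3 of G protein subunits and RGS proteins (1 lost) or the 3 of neuronal RNA-binding proteins (2 lost) was kept. Axon guidance and adhesion had 6 enriched models, with rtn4rl1.L kept and 2 lost. Neuropeptides and trophic factors had 15, with lgi1.L kept and 7 lost. Cytoskeleton and axonal transport had 25, with kif5a.S and stmn1.S kept and 3 lost. Over all function lists 4 of 113 enriched models were kept and 49 were lost. With library totals in place of TMM scaling, none of these 4 genes or thy1.L met the rule.

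Summed markers of several other cell types differed between crushed and uninjured eyes. The summed photoreceptor markers were at 49936 CPM in total retina, between 3105 and 4284 CPM in the 7 uninjured TRAP libraries and at 3849, 3715, 2566 and 2618 CPM in the crushed eye at days 1, 3, 7 and 11. Summed ganglion cell markers lay between 25214 and 26408 CPM in uninjured TRAP and at 25062, 17852, 12685 and 18295 CPM in the crushed eye. The sum includes tubb3.L and tubb3.S, at 1.60 and 2.55 against the contralateral eye at day 11. The median ratio of the 28 enriched markers was -2.06 at day 7 and -2.25 at day 11, so it did not rise with the sum. Leukocyte and microglia markers comprised 17 models, none at 10 CPM in naive TRAP. Their sum was between 15.5 and 22.7 CPM in the uninjured libraries and at 18.4, 22.4, 52.5 and 78.5 CPM in the crushed eye. Lens and cornea markers (26 models) summed to between 33.5 and 58.6 CPM in uninjured TRAP and to 57.5, 33.3, 198 and 214 CPM in the crushed eye. Mueller glia and astrocyte markers (31 models) summed to between 564 and 697 CPM in uninjured TRAP and to 632, 687, 690.0 and 1013 CPM in the crushed eye. Endothelial and blood cell markers (19 models) summed to between 42.2 and 53.4 CPM and to 64.7, 92.9, 107 and 52.7 CPM. Bipolar cell markers (16 models) summed to between 429 and 481 CPM and to 474, 270.3, 118 and 142 CPM. Of their 463 CPM in naive TRAP, isl1.L held 91.3 CPM and isl1.S 45.7 CPM. Both isl1 copies are enriched and also on the ganglion cell marker list, and lay at -1.87 and -2.69 at day 7. Oligodendrocyte and Schwann cell markers (12 models) summed to between 592 and 749 CPM and to 651, 411, 236 and 189 CPM. In naive TRAP 611.4 of the 629.7 CPM of that sum came from mpz.L, itself an enriched and lost gene. Pigment epithelium markers (16 models) summed to between 34.1 and 46.2 CPM and to 40.2, 38.7, 12.5 and 11.1 CPM. Amacrine and horizontal cell markers (20 models) summed to between 176 and 204 CPM and to 202, 183, 150.2 and 152 CPM. No gene of the lists for cells other than ganglion cells was kept. Only the bipolar list (2 models, the isl1 copies) and the oligodendrocyte and Schwann cell list (1, mpz.L) held enriched models. With 7.12% kept among all enriched genes, so few models may hold no kept gene, and nothing is read from it. For these lists only the parts of isl1 and mpz.L in a sum are given. Which genes or cells carried the higher leukocyte, lens and Mueller glia sums was not tested. The part of these cells in the kept values was not tested either.

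Among surface proteins the set holds Thy1, a GPI-anchored glycoprotein of the immunoglobulin superfamily that is widely used to mark ganglion cells. thy1.L was at 86.1 CPM in total retina and between 684 and 822 CPM in the 7 uninjured TRAP libraries, with a median of 801 CPM. In the crushed eye it was at 898, 799, 547 and 524 CPM at days 1, 3, 7 and 11, against 816, 801, 736 and 684 CPM in the contralateral eye. The day 1 library lies above all uninjured libraries, and those of days 7 and 11 lie below all of them. Log2 ratios to the contralateral eye were -0.00, -0.43 and -0.39 at days 3, 7 and 11. thy1.L thus meets the rule while its crushed eye at days 7 and 11 was 0.55 and 0.61 log2 units under the uninjured median.

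Nogo receptor-like 1, a GPI-anchored relative of the receptor that binds axon growth inhibitors in mammals, showed a like course. rtn4rl1.L was at 14.6 CPM in total retina and between 55.4 and 72.3 CPM in uninjured TRAP, with 69.2, 69.7, 49.9 and 41.1 CPM in the crushed eye. Its values of days 7 and 11 are below every uninjured library, while day 1 and day 3 lie among them. The contralateral eye was itself at the low end of uninjured TRAP at days 7 and 11, with 58.3 and 55.4 CPM. The ratios were thus -0.22 and -0.43. lgi1.L, which encodes a secreted synaptic protein linked to epilepsy in humans, was between 57.1 and 89.5 CPM in uninjured TRAP and at 81.3, 88.5, 54.6 and 43.2 CPM in the crushed eye. Its contralateral eye was also at the low end on those days, with 59.9 and 57.1 CPM at days 7 and 11, so the ratios were -0.13 and -0.40. lgi1.L and rtn4rl1.L lay at -0.81 and -0.73 against the uninjured median at day 11.

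3 less abundant membrane proteins completed this group. rell2-like.L, a relative of the TNF receptor family member RELT, was at -0.50, -0.46 and 0.20 at days 3, 7 and 11 and just inside the window. btnl8.L, a butyrophilin-like protein, was 11.2-fold above total retina in naive TRAP and stood at 14.2, 26.0, 21.04 and 33.0 CPM in the crushed eye, against 15.1, 19.4, 16.1 and 24.4 CPM contralaterally. Both eyes were highest at day 11, and the ratios of 0.42, 0.38 and 0.44 were nearly the same on the 3 days. tmem74.S, a transmembrane protein tied to autophagy in human cells, was 10.7-fold above total retina and at 0.40, -0.06 and 0.46.

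Stathmin 1, which binds tubulin dimers and destabilises microtubules, was the most abundant kept gene. stmn1.S had 3056 TPM in naive TRAP (the authors' per-length unit), ahead of thy1.L with 504 TPM and rab6a.L with 383 TPM. It was at 222 CPM in total retina, between 1369 and 1570.1 CPM in uninjured TRAP with a median of 1503 CPM, and at 1302, 1074, 1215 and 1767 CPM in the crushed eye. The crush libraries of days 1, 3 and 7 lie below all uninjured ones and that of day 11 above all of them. The ratios of -0.42, -0.31 and 0.37 at days 3, 7 and 11 pass the window on both sides of 0 and span 0.79 log2 units.

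Kinesin heavy chain Kif5a carries cargo outward along axons, and under TMM scaling its gene was among the steadiest with a symbol. With library totals kif5a.S lay at -0.52 at day 7 with an enrichment of 1.93, so it missed the rule. It missed the rule with DESeq2 size factors, another scaling, as well. Its contralateral eye was at 573 CPM at day 11, against 645, 649 and 649 CPM at days 1, 3 and 7. kif5a.S was at 151 CPM in total retina, between 549 and 649 CPM in uninjured TRAP and at 588, 698, 551 and 569 CPM in the crushed eye. Only the day 3 library lies outside the uninjured range, above it. The ratios were 0.10, -0.24 and -0.01, and at 272 TPM it stood above the other kinesin-1 heavy chain copies in naive TRAP, kif5a.L (86.9 TPM), kif5c.L (59.9 TPM), kif5b.S (43.4 TPM), kif5c.S (19.4 TPM) and kif5b.L (3.24 TPM).

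Fascin bundles actin filaments in growth cone filopodia in several animals, and its gene peaked at day 3. fscn1.S was between 194 and 269 CPM in uninjured TRAP and at 208, 324, 204 and 153 CPM in the crushed eye, so that day 3 lies above and day 11 below all uninjured libraries. The contralateral eye had its highest value at day 3 as well, 269 CPM. The kinesin family gene kif26b-like.S had ratios of -0.38, 0.01 and -0.23, and specc1-like.L, a coiled-coil protein, -0.03, -0.29 and -0.05.

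3 small GTPases of membrane traffic were kept. rab6a.L, a GTPase of the Golgi, was at 35.2 CPM in total retina, between 341 and 375 CPM in uninjured TRAP and at 333, 295, 316 and 317 CPM in the crushed eye. All 4 crush libraries lie below all 7 uninjured ones, by little, with ratios of -0.23, -0.11 and -0.16 at days 3, 7 and 11. rab11b.2.S, a GTPase of recycling endosomes, was between 102 and 113 CPM in uninjured TRAP and at 97.7, 76.4, 117 and 137 CPM in the crushed eye, low at day 3 and above all uninjured libraries at days 7 and 11. rab33a.L was between 93.5 and 129 CPM in uninjured TRAP and at 116, 69.3, 113 and 129 CPM in the crushed eye. Its lowest uninjured value was that of the contralateral eye on the same day 3, so its ratio then was -0.43 although the crushed eye was 0.83 log2 units under the uninjured median.

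The most strongly enriched kept gene was gipc3.L, a PDZ-domain protein whose loss causes deafness in mice and humans. It was at 4.83 CPM in total retina and between 93.8 and 113 CPM in uninjured TRAP, a naive ratio of 21.2-fold, and at 99.6, 75.3, 77.3 and 87.6 CPM in the crushed eye. Day 1 lies among the uninjured libraries and the 3 later days below them, with ratios of -0.32, -0.34 and -0.14.

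2 calcium-binding proteins were kept. ncs1.1, neuronal calcium sensor 1, was between 286 and 365 CPM in uninjured TRAP and at 304, 265, 362 and 381 CPM in the crushed eye, below the uninjured range at day 3 and above it at day 11. The separate model ncs1.S was enriched too and left the window, at -0.04, -0.77 and -0.39. anxa6.L, annexin A6, which binds membranes in the presence of calcium, was between 181 and 257 CPM in uninjured TRAP and at 220.5, 188, 298 and 180.4 CPM in the crushed eye. Its ratios of -0.45, 0.38 and -0.00 had the widest span among kept genes with a symbol, 0.83 log2 units, so that its place in the set rests on both signs.

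Enzymes, transporters and nuclear proteins made up the rest of the named genes. ppa2.S, a mitochondrial pyrophosphatase, had ratios of -0.31, 0.02 and 0.34, and ddah1.L, which breaks down methylated arginines that inhibit nitric oxide synthase, -0.25, 0.35 and -0.28. The sugar transporter gene slc45a1.S had ratios of -0.15, -0.01 and -0.18, the smallest largest deviation (0.18) among kept genes with a symbol. It was at 48.9 CPM in naive TRAP, and both eyes were low at days 7 and 11, with 27.9 CPM contralaterally on each day and 27.7 and 24.6 CPM in the crushed eye. cdc5l.S, a spliceosome component, was at 0.13, 0.32 and 0.42. cdk2ap1.L, which binds cyclin-dependent kinase 2 in mammals, was at 0.21, -0.15 and -0.37, and slc7a6os.L, whose yeast counterpart helps import RNA polymerase, at -0.00, -0.13 and -0.37. rprc1-like.S was below 0 on each day (-0.33, -0.30 and -0.36), and pcolce2.S, an enhancer of procollagen processing, was at 0.17, -0.15 and -0.26.

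Only 25 of the 46 kept genes carry a symbol. Another 7 carry a LOC name and 14 a model name alone, and no function is given to these. Xelaev18046312m, at 487 CPM in naive TRAP, and Xelaev18005479m, at 372 CPM, followed stmn1.S, thy1.L and kif5a.S in CPM. Xelaev18005479m had ratios of 0.03, -0.18 and -0.13 and lay inside the uninjured range on all 3 days. The model with the smallest largest deviation, Xetrov90030656m.L, was at -0.04, -0.10 and -0.05.

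**Figure D2:**
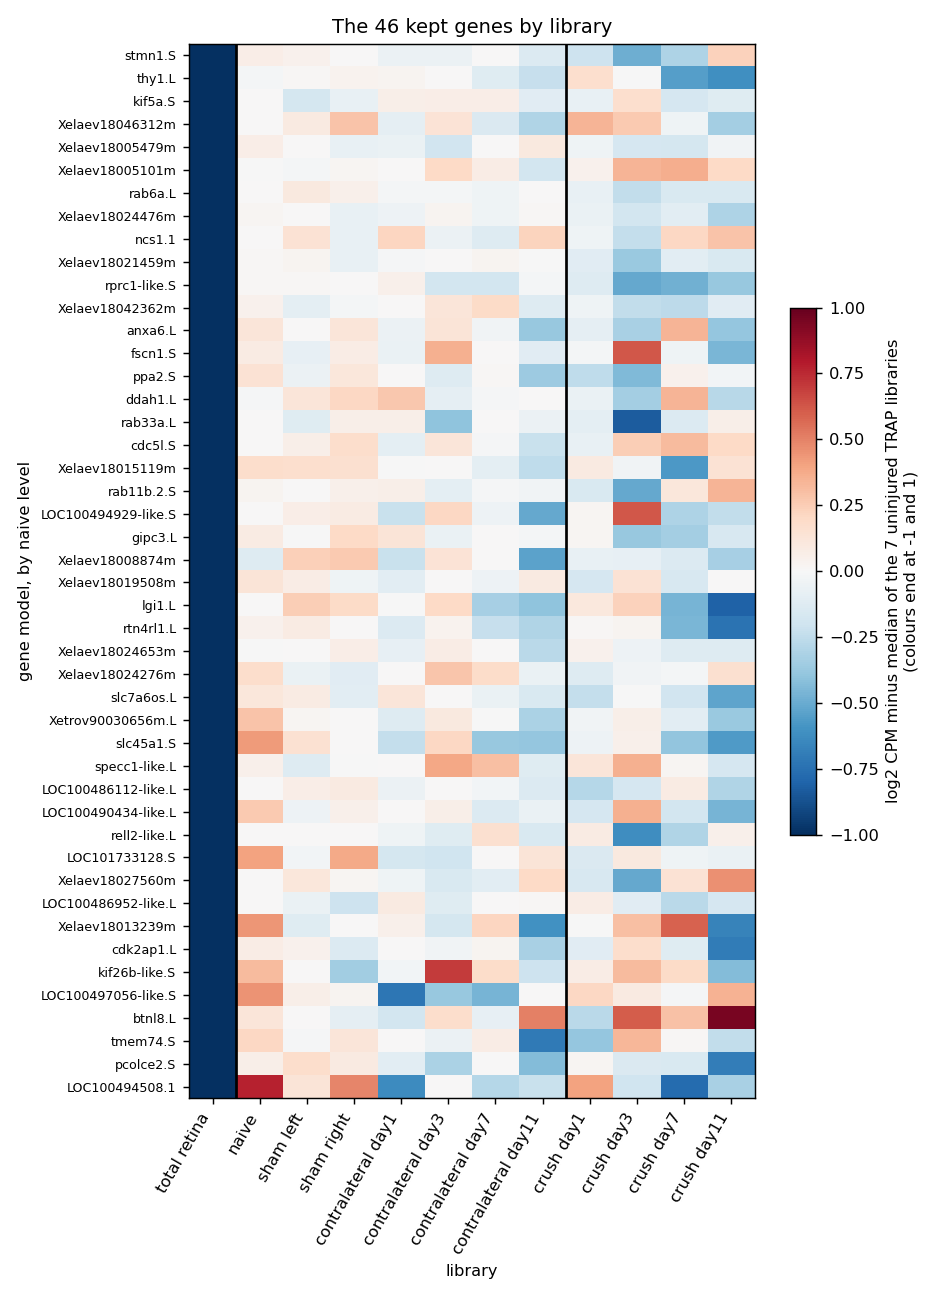
Rows are the 46 kept genes by naive level and columns the 12 libraries, and colour gives log2 CPM minus the gene's median over the 7 uninjured TRAP libraries, with colours ending at -1 and 1. Total retina is at the low end for every gene, and thy1.L, lgi1.L and rtn4rl1.L are blue in the crushed eye at days 7 and 11.

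The window leaves room for differences larger than the spread of uninjured eyes. For 6 of the 46 kept genes the crushed eye lay inside the range of the 7 uninjured TRAP libraries at all of days 3, 7 and 11, against 6.28% of the 12871 genes at 10 CPM or more and 0 of the 206 lost genes. These counts use the values that chose both sets, so nothing is read from their difference. Over the 3 days 12 kept genes lay below the contralateral eye every time, 4 above it every time, and 30 on both sides. The ratio moved by 0.5 or more between days in 17 genes. The 95% interval for counting error lay within the window on all 3 days in 30 genes. These intervals hold no difference between frogs. Among genes with a symbol, the values just inside the window were 0.500 for rell2-like.L, 0.461 for tmem74.S and 0.453 for anxa6.L (the largest of the 3 absolute ratios). Just outside, again among genes with a symbol, were dtd1.L at 0.502, cystm1.L at 0.503 and ggh.L at 0.512. For enrichment among genes with a symbol, lgi1.L (2.003) and pcolce2.S (2.005) were just inside and bbip1.L (1.996) and hus1.L (1.996) just outside. For level, pcolce2.S at 11.0 CPM was the lowest kept gene with a symbol, and socs1.L at 4.12 CPM the nearest such gene outside.

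Which genes met the rule depended on the reference eye. The 46 were chosen by the contralateral eye, so another reference can only lower their number. With the rule applied afresh, 34 genes met it against the median of the 7 uninjured TRAP libraries and 30 against naive TRAP. Set against the median of the 7 uninjured TRAP libraries in place of the contralateral eye of the same day, 28 of the 46 kept genes lay within 0.5 on all 3 days, and set against naive TRAP 22 did. At day 11, 8 kept genes lay more than 0.5 below the uninjured median and 1 above it, btnl8.L at 0.95. The 8 included lgi1.L (-0.81), rtn4rl1.L (-0.73), cdk2ap1.L (-0.70), pcolce2.S (-0.70) and thy1.L (-0.61). A kept gene can lie that low only where its contralateral eye is low too. On that day the contralateral eye of these genes was at -0.40, -0.30, -0.33, -0.44 and -0.23 against the same median. Naive TRAP chose the genes by a minimum, so it can stand high for them. These references were chosen after seeing the data.

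Of the 17 other genome copies of kept genes that were at 10 CPM or more, 0 were kept. Over all genes at that level 17 of 5370 such copies were kept, a share at which 17 copies may hold none. Of 31 kept genes with an .L or .S name, 22 have the other copy in the tables, and 17 of these copies were at 10 CPM or more in naive TRAP. Of the 17, 6 were enriched and left the window on at least 1 day, 3 stayed in the window and were not enriched, and 8 did neither. The share in the window was 3 of 17. It was 442 of 1163 for the other copies of all genes in the window and 1163 of 5370 for those of all genes at 10 CPM or more. Most genes behind these 2 shares were not enriched. Within the enriched genes it was 2 of 109 for copies of lost genes and 7 of 168 for copies of genes neither kept nor lost. These shares were not tested. Among the other copies of lost genes 58 of 109 were lost, beside 109 of 5370 for those of all genes at 10 CPM or more. For copies of enriched genes neither kept nor lost it was 21 of 168. Only an enriched copy can be lost. The lost rule has no lower limit and the kept rule is a window on 3 days, so their shares are not compared. Where copies are nearly identical their reads cannot always be told apart, and the split is that of the authors' counting.

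Differences between copies went in both directions. lgi1.S, at 57.3 CPM in naive TRAP, had ratios of -0.38, -1.79 and -1.49, against 0.03, -0.13 and -0.40 for lgi1.L. LOC100490434-like.S was at -0.74, -1.37 and -1.77, against 0.29, -0.05 and -0.40 for its .L copy. In these 2 pairs the other copy was below -1 at both late days while the kept copy was not.

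For other pairs the second copy was higher in the crushed eye. ppa2.L was at 1.73 and 1.58 at days 7 and 11 against 0.02 and 0.34 for ppa2.S. That copy was below total retina in naive TRAP (38.8 against 158.7 CPM), where ppa2.S was 5.41-fold above. fscn1.L was at 0.60, 0.83 and 1.38 against 0.27, -0.04 and -0.34 for fscn1.S, and stmn1.L reached 1.04 at day 11 against 0.37 for stmn1.S. cdk2ap1.S was at 0.92, 1.03 and 0.48.

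In 3 pairs both copies stayed in the window. kif5a.L had ratios of -0.05, -0.30 and 0.08 beside 0.10, -0.24 and -0.01 for kif5a.S and missed the set by enrichment (1.62). The others were ddah1.S (-0.20, 0.21 and -0.04) and cdc5l.L (-0.14, 0.15 and -0.03). rab6a.S was enriched (2.58) and lay at -0.75, -0.57 and -0.33, outside on days 3 and 7.

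**Figure D3:**
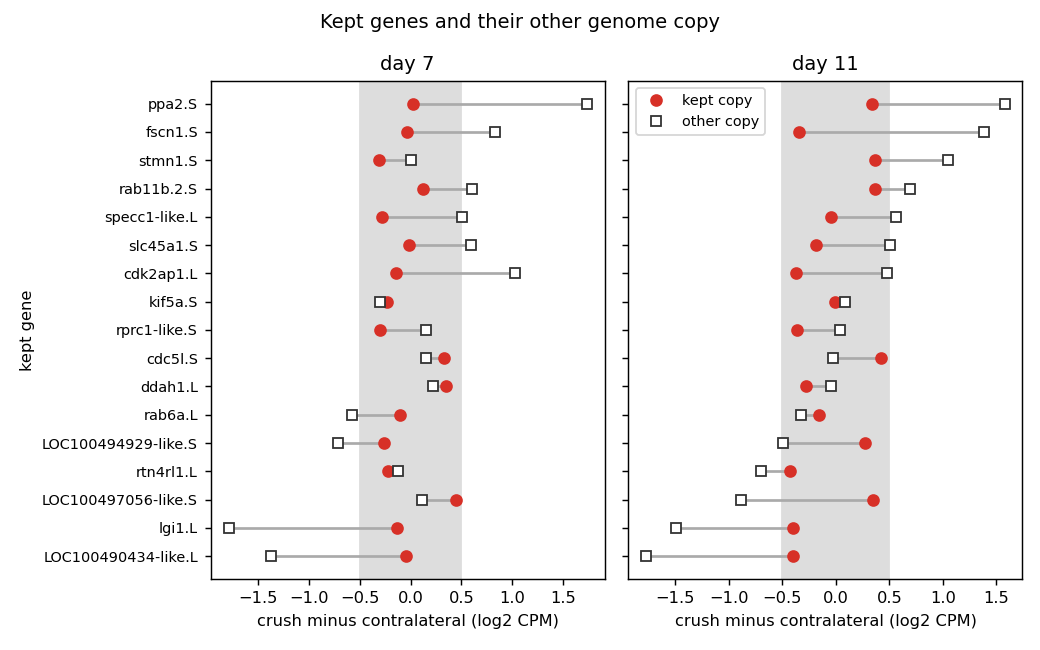
For the 17 pairs whose other copy was at 10 CPM or more, the points give crush minus contralateral (log2 CPM) of the kept copy (red) and of the other copy (open square) at days 7 and 11, with the grey band at 0.5 either way. The open squares run from -1.79 for lgi1.S to 1.73 for ppa2.L at day 7.

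Day 1 after crush was not used to choose the genes, and there the kept genes could be tested. The day 1 crush library was set against the 3 other day 1 eyes (the contralateral eye and both sham eyes) by the quasi-likelihood F test of edgeR, in which the lone crush library is assumed to vary like the 3 others. Of 28630 genes tested, 26 were called higher (0.0908%) and 2 lower (0.00699%) at an adjusted p under 0.05. All 46 kept genes entered each fit, but DESeq2 gave an adjusted p to only 13088 genes. Kept genes without one, such as LOC100494508.1, could not be called by it. None of the 46 kept genes was called by edgeR, DESeq2 or limma-voom. With so few of all genes called, a set of 46 may hold none, so nothing is read from this. At an unadjusted p under 0.05 edgeR had 5 kept genes, DESeq2 5 and limma-voom 7. Over all 28630 genes edgeR had 1818 (6.35%), DESeq2 1493 and limma-voom 2850. With the sham or crush frogs as a block, which pairs both eyes of the same frogs, edgeR called 17 genes higher and 0 lower. Without the contralateral library it called 17 and 1, and without the sham right library 47 and 1. The fitted changes of the kept genes had a median of -0.05 on the log2 scale, against -0.01 for all genes, with 16 above 0 and 30 below, and none beyond 0.43.

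The smallest p-values among the kept genes belonged to stmn1.S, ppa2.S and ddah1.L, which are singled out after their values were seen. stmn1.S was at 1302 CPM in the crushed eye against 1442, 1549 and 1503 CPM in the contralateral, sham left and sham right eye, a log2 change of -0.20 ± 0.08 (standard error of the fit, adjusted p = 0.670 in edgeR). ppa2.S was at 112 CPM against 133, 128 and 144 CPM, a change of -0.27 ± 0.11 (adjusted p = 0.670 in edgeR). ddah1.L was at 128 CPM against 161, 145 and 154 CPM, a change of -0.26 ± 0.11 (adjusted p = 0.677 in edgeR). In each of the 3 the crush library lies below all 3 others, by amounts that the test did not call.

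Against the contralateral eye alone, 44 of the 46 kept genes lay within 0.5 at day 1, and 4.58% of all genes at 10 CPM or more lay beyond it. The 2 exceptions were LOC100494508.1 at 1.03 (95% counting interval 0.80 to 1.28) and LOC100497056-like.S at 0.93 (0.77 to 1.09). In both the contralateral day 1 library was the lowest of the 7 uninjured ones, at 3.91 and 8.51 CPM, and against the 3 day 1 eyes the fitted changes were 0.36 ± 0.35 and 0.39 ± 0.26 (adjusted p = 0.936 and 0.908 in edgeR). The day 1 crush library lay inside the range of the 7 uninjured libraries in 33 of the 46, against 75.2% of all genes at 10 CPM or more. Between the sham eyes 0 of the 46 lay beyond 0.5, against 3.71% of all genes. The median ratio of kept genes was -0.02 at day 1 and 0.01 between the sham eyes.

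**Figure D4:**
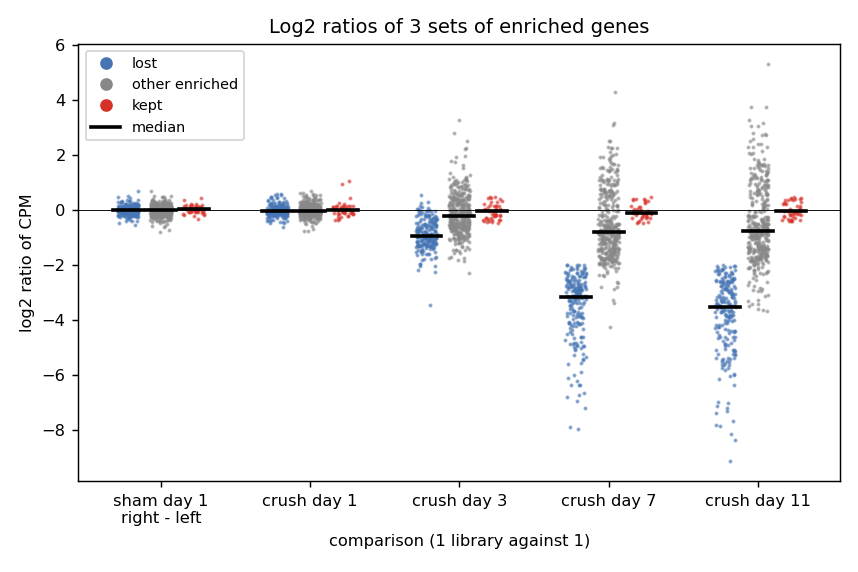
Points are genes, in 3 sets (lost, other enriched and kept), and the y axis gives the log2 ratio of CPM between 1 library and 1 other, right minus left eye for sham and crush minus contralateral for days 1 to 11. Black bars are medians. The 3 sets overlap at sham and day 1 and are set apart later by the rules that chose them.

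The lost genes were set beside the kept genes on day 1 values and gene length, which no rule used. At day 1 their median ratio was -0.04 beside -0.02 for the kept genes. In edgeR 0 of 206 were called (21 at an unadjusted p under 0.05). Over all genes 0.0978% were called and 6.35% had an unadjusted p under 0.05, so 206 genes may hold no called gene. Gene models of the kept set had a median length of 2895.5 bases (quartiles 1680 and 4245), those of the lost set 2218.5 bases (1473 and 3602), and all genes at 10 CPM or more 3014 bases. The range over the 7 uninjured TRAP libraries had a median of 0.40 log2 units in kept genes, 0.49 in lost genes and 0.46 in all genes at 10 CPM or more. Both rules used 4 of those 7 libraries, naive and the contralateral eyes of days 3, 7 and 11. No test was made of these differences. Naive level and enrichment entered both rules. Their medians were 78.1 CPM and 2.33 for kept genes, 62.3 CPM and 2.76 for lost genes. Enrichment of 3 or more was met by 8 kept genes.

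How many genes are kept rests on the scaling of the libraries, because crushed eyes at days 7 and 11 had TMM factors of 0.851 and 0.815 against 1.04 and 1.06 contralaterally. With library totals in place of TMM the median ratio of all genes with 200 counts moved by -0.05, -0.28 and -0.37 at days 3, 7 and 11, and that of the kept genes by -0.05, -0.29 and -0.38. With library totals 24 genes met the rule, 14 of the 46 among them. The other 32 left because 29 lay under the window on some day and 10 missed the enrichment threshold, some both. With DESeq2 size factors 42 met it, 38 of the 46 among them. Of the kept genes with a symbol, kif5a.S, lgi1.L, pcolce2.S, rell2-like.L and tmem74.S did not. 13 kept genes met the rule under all 3 scalings.

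**Figure D5:**
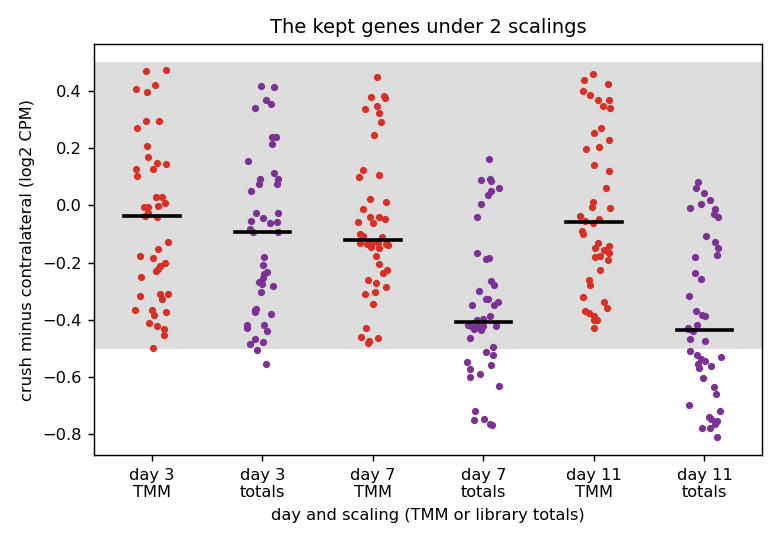
Points are the 46 kept genes, the y axis is crush minus contralateral (log2 CPM) at days 3, 7 and 11, with TMM scaling (red) and library totals (purple), bars are medians and the grey band is 0.5 either way. The median at day 11 is -0.06 with TMM and -0.44 with library totals.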

How the data were processed

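Ribosome-bound RNA of ganglion cells (11 TRAP libraries) and total retina RNA (1 library) were sequenced from Xenopus laevis. Per the file headers, the deposited tables give each gene model's length, its TPM and an estimated count (57.9% of counts whole within 0.001). The submitters' processing notes name Trimmomatic 0.33, Bowtie2 2.2.5 and RSEM 1.2.21. The build used for alignment was not given in the sources used here, nor was its annotation. The authors' TPM values were used as deposited for levels between genes. Expected counts were rounded to whole numbers, scaled by TMM in edgeR 4.0.16 (R 4.3.3) and given as CPM or as log2 CPM with a prior count of 2. Totals ran from 16820571 to 63299998 counts.

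Crush, contralateral, sham, naive and total retina libraries were compared 1 against 1 without a test. Day 1 crush was tested against the 3 other day 1 eyes with glmQLFit (robust) and glmQLFTest after filterByExpr, with Benjamini-Hochberg adjustment over all genes at 0.05. DESeq2 1.42.0 and limma 3.58.1 (voom) were alternatives. The edgeR fit was also run on simulated counts with the same spread for every gene and no differences between frogs or eyes. Median estimates for planted changes of -2, -1, 1 and 2 were -1.99, -1.02, 0.98 and 1.89, and false calls occurred. Because its setting differs from the real libraries, the simulation cannot show how often the fit errs in these data. P-values measure the spread between 3 pooled libraries, both eyes of the sham frogs and the contralateral eye of the crush frogs. That spread mixes treatments and eyes of the same frogs and is not a spread between replicates. The main fit does not pair eyes of the same frogs, and the block fit does. Ratio intervals are exact binomial intervals for counting error. Names were looked up in the RefSeq gene table of Xenopus_laevis_v10.1, where 16 of 46 kept genes matched by symbol. Sequences are not analysed here.

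The kept genes, lists and tests were chosen with earlier results of these data known. Named are kept genes with a symbol of highest level, highest enrichment and smallest deviation, those on a list, those in copy pairs, and those next to a threshold. The rest were added after their values were seen.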

Additional observations from a re-analysis of the deposited data

Results flagged for a closer look

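Among the 46 kept genes, whose 4 contralateral values were each screened for a library far from the other 3, 1 was singled out, where chance singles out about 1 in 20. kif5a.S was at 9.16 log2 CPM in the contralateral eye of day 11, and its other 3 contralateral values lay between 9.33 and 9.34. The crushed eye of day 11 was close to it (569 CPM, against 573 CPM in the flagged library), and sham left was lower still at 549 CPM.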

How the results depend on the processing

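The count of kept genes, 46, was 24 with library totals, 28 with a window of 0.4, 8 with an enrichment of 3, 70 without day 11 in the rule and 30 against naive TRAP. It stayed within 1.5 times of 46 in the other 8 settings, among them 32 with copies summed. Pairs with both copies kept counted as 2 genes with library totals and 2 with a window of 0.6, against 0. At day 1, 26 genes were higher and 2 lower in edgeR. These were 63 and 8 in limma-voom, 61 and 11 without a filter on low counts, and 12 and 0 against all 7 uninjured libraries. DESeq2 had 29 and 8. With the frogs (sham or crush) as a replicate block, which pairs the eyes of the same frogs, edgeR had 17 and 0. Without 1 of the 3 other eyes (contralateral, sham left or sham right) the counts ran from 17 to 47 and from 1 to 2. In all 10 alternatives 0 kept genes were called, the smallest adjusted p being 0.129 (limma-voom). Few of all genes were called in any of them, so a set of 46 may hold none. The causes of these shifts were not tested. With 1 pooled library per condition, no difference between frogs can be measured for days 3, 7 and 11. The lost genes numbered 206, 214 with library totals and 196 with DESeq2 size factors, settings that, like the naive and uninjured median references, were added after seeing the data. Promoter motifs were not run.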
